A study of Mus musculus with 7 samples.

Results

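Kit, Flt3 and Csf1r encode growth factor receptors of blood cells, and the positions at which HA-tagged GATA2 and HA-tagged 9aa-Ins were found around the 3 genes are described here. They are 3 of 21938 protein-coding genes outside the mitochondrial genome in GENCODE M21. Every listed peak was taken whose summit lay inside one of the genes or within 150 kb of its start, a distance that takes in the far upstream Kit element. Under this rule 9 of the 6254 GATA2 peaks and 0 of the 1079 9aa-Ins peaks belonged to the receptor genes. The cells of both groups were hi-77-/- progenitors, which are Lin- progenitors of mouse fetal liver that lack on both alleles the far upstream Gata2 enhancer for which they are named and were immortalized with estrogen-regulated HoxB8. They were grown with β-estradiol and medium containing stem cell factor, so the ligand of KIT was supplied to both groups. One group was infected with a retrovirus carrying HA-tagged GATA2 and GFP. The other received the same vector with HA-tagged 9aa-Ins, a GATA2 with 9 amino acids inserted between its zinc fingers. GFP+ cells were sorted and pooled, and each group was then split into 2 anti-HA CUT&Tag libraries, so these replicates come from the same pool of cells. The residual endogenous Gata2 carries no HA tag and is not read by this antibody. Each of the 2 peak lists merges the replicates of its group, so every site has 1 value per group, no spread between replicates can be given, and no test between the groups was made. The 3 anti-GATA2 libraries of the series were not analysed here, and peak lists hold no expression by which the cell type could be checked.

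KIT, FLT3 and CSF1R are receptor tyrosine kinases of the same family. A ligand outside the cell brings receptor chains together and their kinase domains phosphorylate one another. The phosphorylated part inside the cell recruits adaptors, PI3-kinase and phospholipase C. KIT binds stem cell factor and acts in stem and progenitor cells and in mast cells. FLT3 binds FLT3 ligand and acts in lymphoid and dendritic cell progenitors, and CSF1R binds CSF-1 and IL-34 and is needed by monocytes and macrophages. GATA2 is a zinc finger transcription factor of stem and progenitor cells that recognizes the DNA motif WGATAR.

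The height of a peak is given as its pileup, which is the number of reads stacked over the summit. It is not in the lists, and was recovered from the fold enrichment, since the latter came out as a whole number of reads plus 1 over a fixed background plus 1. The GATA2 list had a background of 0.464 reads and the 9aa-Ins list one of 0.455. The series holds no library of cells without an HA-tagged construct, so signal not due to the tag was not measured. The lowest pileup was 9 reads in both lists, so a site with fewer reads could not be listed. The exact Poisson 95% intervals cover counting error only. GATA2 was listed at each receptor gene, with 2 peaks at Kit, 3 at Flt3 and 4 at Csf1r, and 9aa-Ins at none. Across the protein-coding genes the same rule gave a GATA2 peak for 60.1% and a 9aa-Ins peak for 23.8%, so neither the presence of GATA2 at a gene nor the absence of 9aa-Ins is rare. At least as many GATA2 peaks were found around 41.6% of genes for Kit, 28.5% for Flt3 and 19.1% for Csf1r. The strongest peak had 36 reads at Csf1r, 26 at Kit and 10 at Flt3. A peak of that pileup or higher lay around 5.83% of genes for Csf1r, 15.7% for Kit and 59.8% for Flt3. The intervals of Csf1r (25.2 to 49.8 reads) and Kit (17 to 38.1 reads) overlapped. Those of Kit and Flt3 (4.8 to 18.4 reads) also touched, whereas those of Csf1r and Flt3 did not.

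**Figure D1:**
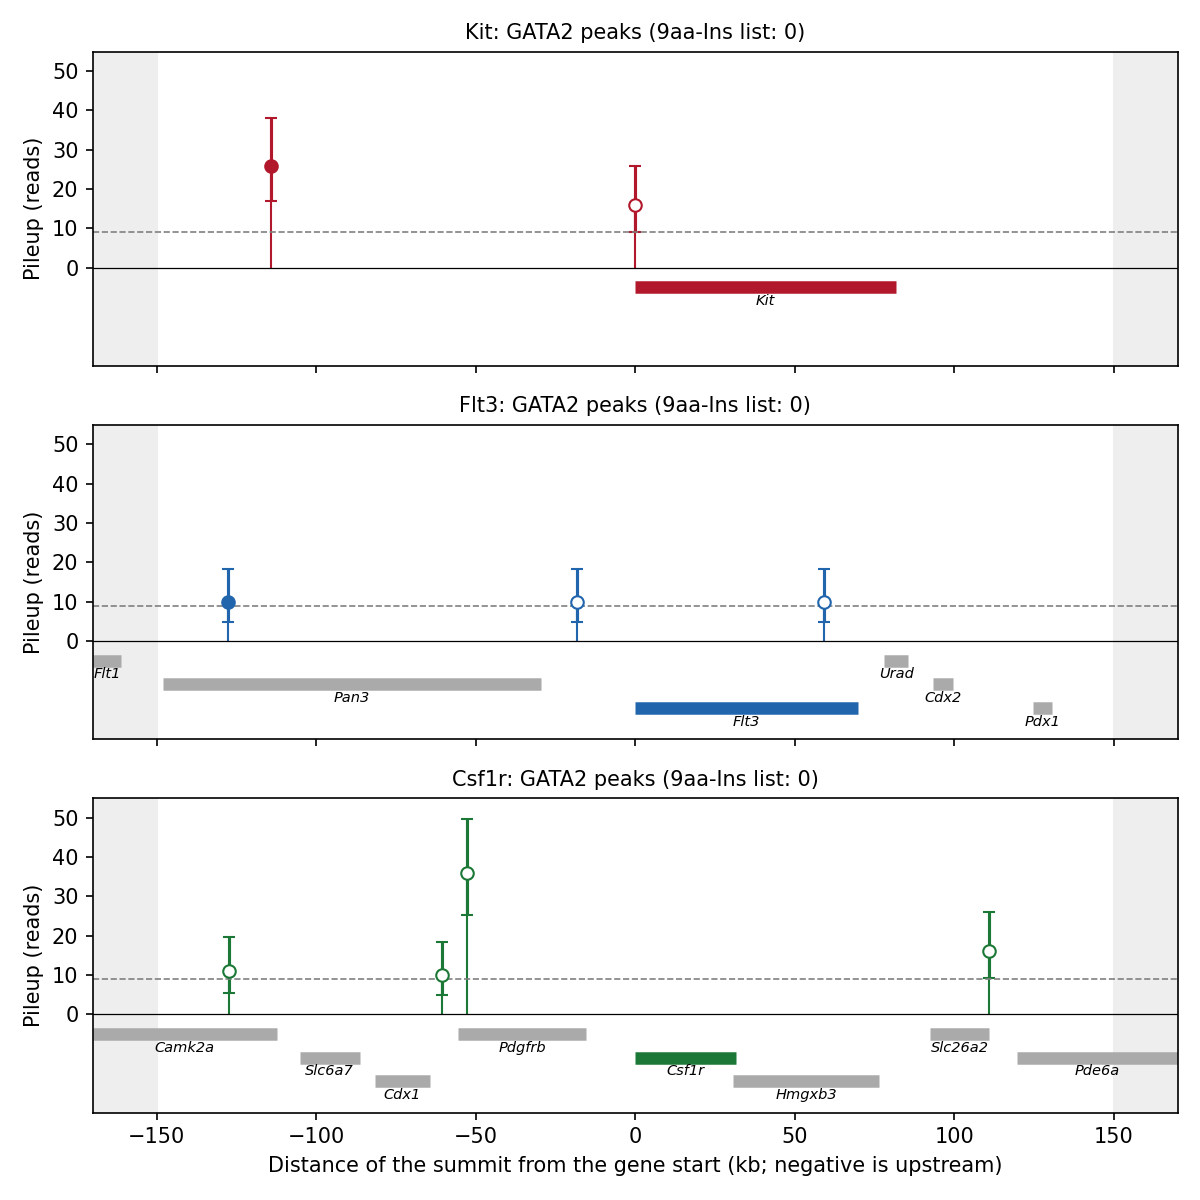
GATA2 peaks at the 3 receptor genes. Each point is a peak, placed by the distance of its summit from the gene start in kb (negative is upstream) and by its pileup in reads, with the exact Poisson 95% interval. Filled points hold WGATAR within 100 bp of the summit and open points do not. Bars below 0 are protein-coding genes with the receptor gene in color, grey flanks lie beyond 150 kb, and the dashed line is the lowest pileup of the 9aa-Ins list (9 reads). The upstream Kit peak (26 reads) and one Csf1r peak (36 reads) stand above the others, and the 3 Flt3 peaks lie at 10 reads.

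Kit lies on the plus strand (ENSMUSG00000005672.12, mm10 chr5:75574916-75656722). GATA2 was listed at a site 114 kb upstream of the gene and at the Kit promoter. These were the only receptor peaks whose nearest protein-coding gene start was that of the receptor itself. For Kit this follows from the rule, since the neighboring coding genes, Pdgfra and Kdr, lie 377 kb and 276 kb from the gene. The windows of Flt3 and Csf1r hold several other coding genes. The upstream peak (chr5:75460377-75460982) was 606 bp wide against a median of 341 bp in the GATA2 list. It had a pileup of 26 reads (interval 17 to 38.1), a fold enrichment of 18.4 and a −log10 q of 32.9, and 88.7% of GATA2 peaks were lower. It lay in intergenic sequence, and 4.92% of GATA2 peaks were as far or farther from any protein-coding gene start. The rule's distance was set to include this site, so its distance is a description and not a result. The 201 bp around its summit held WGATAR (A or T, then GATA, then A or G, sought on both strands) 2 times. One match was centered 49.5 bp before the summit on the plus strand and the other 22.5 bp after it on the minus strand, and both read AGATAA on their own strand. WGATAR was present within 100 bp of the summit in 30.3% of all GATA2 peaks, and 9.55% had 2 or more matches. None of the window was marked as repeat in the genome sequence. The sequence is shown because it is the strongest GATA2 site at Kit and the one with a motif, with both matches in capitals, on the plus strand of GRCm38 (chr5:75460585-75460785).
Kit 114 kb upstream: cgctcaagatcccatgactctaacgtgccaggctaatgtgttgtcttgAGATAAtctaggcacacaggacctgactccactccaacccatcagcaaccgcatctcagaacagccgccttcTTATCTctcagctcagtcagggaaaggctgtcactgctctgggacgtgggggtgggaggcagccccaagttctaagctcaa

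The promoter peak of Kit (chr5:75574919-75575155) had its summit 56 bp after the gene start, in the first exon and its untranslated part, and 17 bp after the start of the other protein-coding transcript. Its pileup was 16 reads (interval 9.15 to 26), with a fold enrichment of 11.6, close to the list's median of 15 reads. It held neither WGATAR nor the bare letters GATA anywhere, and its window had a GC content of 72.1% against a median of 58.2% over all GATA2 peaks. The 300-bp promoter sequences of RefSeq (build GRCm38.p6) held WGATAR in 29.6% of 32544 distinct sequences, and the Kit promoter was among those without it. The core of ETS factor motifs, GGAA on either strand, was found in 96% of promoters and 1 time in that of Kit, where TGTGGT, a core recognized by RUNX factors, was absent (16.7% of promoters had it). The RefSeq sequence upstream of the transcribed part (chr5:75574737-75574915), which ends next to the peak, is shown with GGAA in capitals.
Kit promoter: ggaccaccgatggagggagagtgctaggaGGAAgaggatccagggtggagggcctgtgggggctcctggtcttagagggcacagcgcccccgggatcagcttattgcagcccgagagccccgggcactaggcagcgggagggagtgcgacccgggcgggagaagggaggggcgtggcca

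No 9aa-Ins peak was listed at Kit. The nearest was just past the limit of the rule, 156 kb downstream of the Kit start and 74.2 kb beyond the gene end (chr5:75730714-75730927), in an intron of the noncoding gene Gm43101. It had a pileup of 14 reads (interval 7.65 to 23.5) and 1 WGATAR. A GATA2 peak of 10 reads (interval 4.8 to 18.4) without WGATAR overlapped it by 36 bp, with the summits 216 bp apart, and the intervals of the pileups overlapped. Between Pdgfra and Kdr, the coding genes on both sides of Kit, this was the only 9aa-Ins peak, and it was not one of the GATA2 sites inside the window. On the upstream side the first GATA2 peak outside the window was 289 kb from the Kit start. It had 22 reads and lay nearer to Pdgfra, the receptor gene next to Kit.

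Flt3 lies on the minus strand of the same chromosome (ENSMUSG00000042817.15, chr5:147330741-147400489). All 3 of its GATA2 peaks had a pileup of 10 reads (interval 4.8 to 18.4), a fold enrichment of 7.51 and a −log10 q of 8.22, and only 1.79% of the GATA2 list was lower. None of them had the Flt3 start as its nearest protein-coding start, and none lay at the Flt3 promoter. One was inside the gene, in intron 19 of 23 (chr5:147341254-147341456), 59.1 kb after the start, with the start of Urad, an enzyme gene of urate breakdown, as the nearest at 18.9 kb. Another was 18.3 kb upstream (chr5:147418577-147418865), in intron 1 of the noncoding gene D5Ertd605e and 142 bp after the start of that gene. Repeat sequence made up 27.4% of its window, and the nearest protein-coding start was that of Pan3 at 11.4 kb. The remaining peak was 128 kb upstream (chr5:147528072-147528286), in intron 11 of 18 of Pan3, which encodes a subunit of a poly(A) nuclease complex.

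WGATAR was found only at the Flt3 site 128 kb upstream, where 1 match was centered 92.5 bp from the summit, near the edge of the 201-bp window. Its letters are AGATAG on the minus strand. Of the sites upstream by 18.3 kb and within intron 19, neither held the letters GATA in its peak. The site in Pan3 and that inside Flt3 are shown to set the one with WGATAR beside the one in the gene. Both are on the plus strand of GRCm38, opposite to that of Flt3, with WGATAR in capitals where present (chr5:147528125-147528325 and chr5:147341275-147341475).
Flt3 128 kb upstream: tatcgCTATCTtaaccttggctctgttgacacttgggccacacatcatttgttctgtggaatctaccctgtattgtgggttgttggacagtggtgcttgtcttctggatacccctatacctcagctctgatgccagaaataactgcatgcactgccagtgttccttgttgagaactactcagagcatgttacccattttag
Flt3 intron 19: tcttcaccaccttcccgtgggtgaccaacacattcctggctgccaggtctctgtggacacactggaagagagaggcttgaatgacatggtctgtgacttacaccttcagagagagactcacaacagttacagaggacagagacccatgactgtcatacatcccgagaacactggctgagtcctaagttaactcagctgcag

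No 9aa-Ins peak was listed at Flt3, and the nearest was 1.65 Mb from its start. The lower ends of the 3 GATA2 intervals were below the 9 reads needed for listing. The absence of 9aa-Ins from these sites is therefore not informative at this depth, since a small drop in reads would take a site of 10 reads out of the list. The GATA2 peaks nearest to the window were 488 kb upstream with 20 reads and 324 kb downstream with 14 reads. Both were higher than any peak within it.

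Csf1r lies on the plus strand of chromosome 18 (ENSMUSG00000024621.16, chr18:61100598-61132149). GATA2 was not listed anywhere inside Csf1r, and all 4 peaks of its window had another gene as the nearest protein-coding one. The gene start in GENCODE is that of a noncoding transcript, and the first protein-coding transcript starts 4.97 kb later. Measured from protein-coding starts the 4 peaks stayed within 150 kb. The strongest had a pileup of 36 reads (chr18:61047509-61048039), a fold enrichment of 25.3 and a −log10 q of 50.8. It was higher than 96.4% of GATA2 peaks and 531 bp wide. It was centered 52.8 kb upstream of Csf1r but in intron 1 of Pdgfrb, only 2.62 kb after the Pdgfrb start. PDGFRB is the β receptor for platelet-derived growth factor and the neighbor of Csf1r in the genome, so this peak counts for both family members. It had no WGATAR within 100 bp of the summit, but 2 farther out in the peak.

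The other peaks of the Csf1r window were also nearer to the starts of other genes. A site 111 kb downstream (chr18:61211327-61211583) had 16 reads (interval 9.15 to 26) and lay among the starts of Slc26a2, a sulfate transporter gene. It was 144 bp after one protein-coding transcript start and 88 bp before another. It had a GC content of 75.1% and no GATA, GGAA or E-box match within 100 bp of the summit. A site 127 kb upstream (chr18:60973313-60973575) had 11 reads (interval 5.49 to 19.7) and lay in intron 14 of 17 of Camk2a, which encodes a calmodulin-dependent kinase. It was 40.9 kb from the start of Slc6a7, and its peak held WGATAR 2 times, though not within 100 bp of the summit. It was also the only receptor site with TGTGGT near the summit. The fourth, 60.8 kb upstream (chr18:61039803-61039981), had 10 reads (interval 4.8 to 18.4) in intergenic sequence 3.65 kb from the start of Cdx1, a homeobox gene, with GATA present 2 times but no WGATAR. No 9aa-Ins peak was listed at Csf1r, and the nearest was 6.62 Mb from its start. The next GATA2 peaks beyond the window lay 326 kb upstream with 14 reads and 262 kb downstream with 18 reads.

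**Figure D2:**
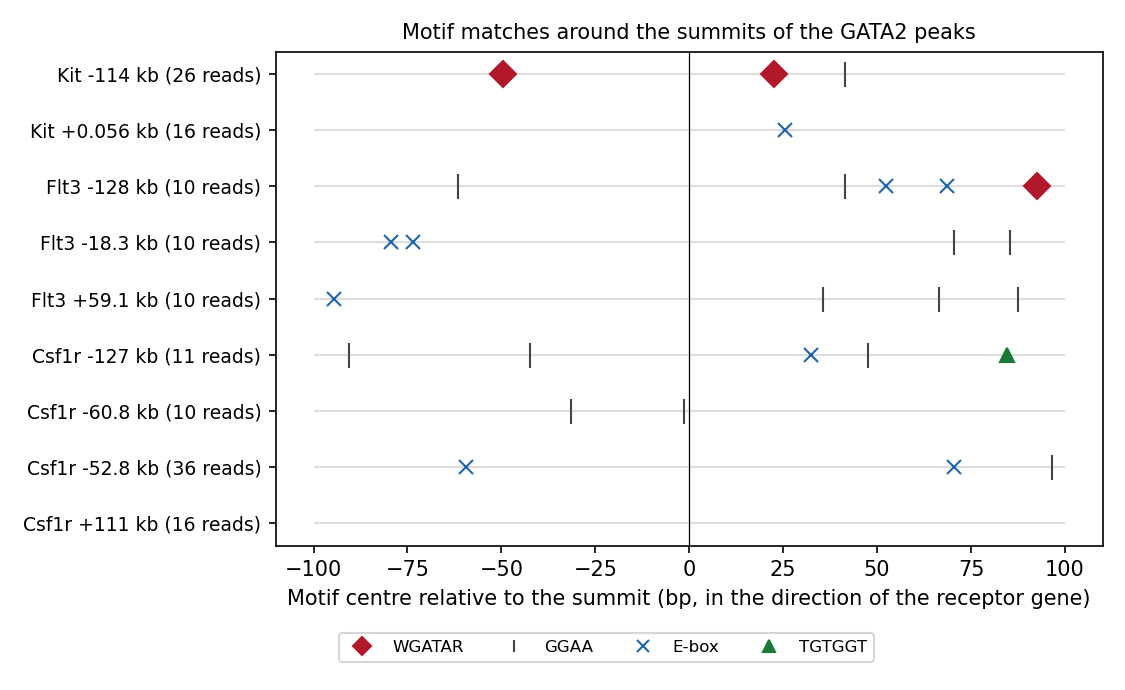
Motif matches within 100 bp of the summits of the 9 GATA2 peaks. The horizontal axis is the motif center relative to the summit in bp, read in the direction of the receptor gene, and each line is a peak named by its distance from the gene start and its pileup. Diamonds mark WGATAR, bars GGAA, crosses E-boxes (CANNTG) and the triangle TGTGGT. A match to WGATAR is seen at the upstream Kit peak, at both sides of the summit, and near the edge of the window at one Flt3 peak.

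Across the 3 genes, 2 of 9 GATA2 peaks (22.2%, Wilson 95% interval 6.32 to 54.7%) held WGATAR near the summit, and the interval includes the 30.3% of all GATA2 peaks. With the whole peak searched, 4 of 9 had it, against 41.3% of all GATA2 peaks. A composite element, in which an E-box (CANNTG) is followed by a spacer of 6 to 14 bp and WGATAR, was found at 0 of 9 peaks and at 3.01% of the list. E-boxes alone were near the summit of 6 of 9 peaks (53.9% of the list) and GGAA of 7 of 9 (88.2%). GGAA was absent near the summit of the Kit promoter and of Slc26a2, the pair with the highest GC content. TGTGGT was found at 1 of 9 peaks and at 16.2% of the list. The promoter class (2 kb upstream to 100 bp downstream of a protein-coding transcript start) took 2 of 9 receptor peaks and 50.4% of all GATA2 peaks. Introns held 5 of 9 against 28%, and intergenic sequence 2 of 9 against 15.6%. The rule chose peaks by their distance from 3 genes, and these shares are given as a description.

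**Figure D3:**
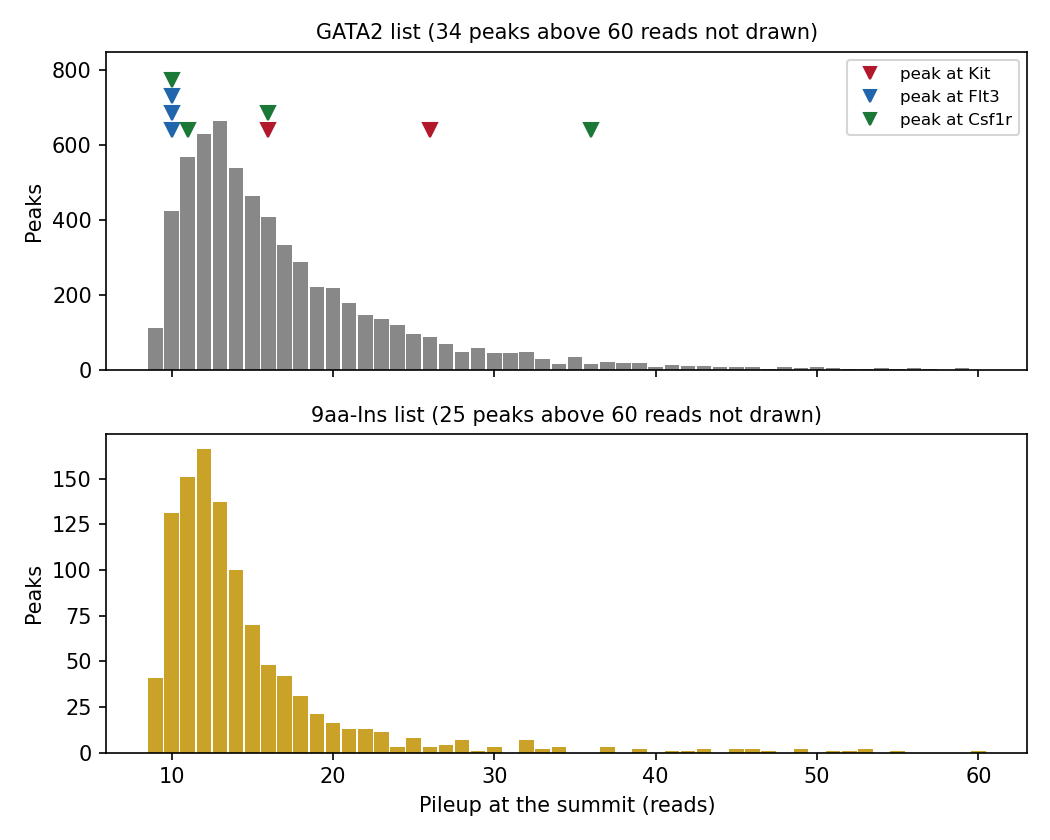
Pileups of all peaks in the GATA2 list (upper panel) and the 9aa-Ins list (lower panel). Bars give the number of peaks at each pileup in reads, up to 60 reads, and triangles above the bars mark the 9 receptor peaks by gene. The 3 Flt3 peaks and 2 of the Csf1r peaks sit at 10 or 11 reads, at the lower end of the list, and those with 26 and 36 reads are in its upper tail.

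None of the 9 receptor peaks overlapped a 9aa-Ins peak, compared with 15.3% of all GATA2 peaks that did by at least 1 bp. For 9 peaks a share of 0 has a Wilson 95% interval reaching 29.9%, which includes 15.3%. Sharing rose with height, from 2.43% of GATA2 peaks at 9 or 10 reads to 53.3% at 40 or more. It was 3.17% among the 1104 peaks of 9 to 11 reads, which is the range of the Flt3 sites. A 9aa-Ins site of up to 8 reads would not have been listed, and 8 reads have an interval of 3.45 to 15.8. The intervals of 2 receptor peaks, the upstream Kit site and the 36-read peak of the Csf1r window, lay above it. Those of the other 7, the Kit promoter included, overlapped it, so a difference from 9aa-Ins was not detectable at this depth.

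Among the higher GATA2 peaks the share found in the 9aa-Ins list also differed with the motif. At 9 to 11 reads, the range of the Flt3 sites, it was 5 of 264 with WGATAR near the summit (1.89%, interval 0.812 to 4.36%) and 30 of 840 without (3.57%, interval 2.51 to 5.05%), and these intervals overlapped. Of peaks within 10% of the height of the upstream Kit peak (24 to 28 reads), 161 of 418 (38.5%) were shared. Among those that hold WGATAR near the summit, as this Kit site does, 20 of 142 (14.1%, interval 9.31 to 20.8%) were shared, and among those without it 141 of 276 (51.1%). Absence of 9aa-Ins was thus the more frequent state of GATA2 sites of this height with WGATAR. Of peaks like the one in Pdgfrb (33 to 39 reads), 77 of 154 (50%) were shared, and 61 of 83 (73.5%, interval 63.1 to 81.8%) of those without WGATAR near the summit. This peak does hold WGATAR 2 times farther from its summit. With the whole peak searched, a choice made after seeing the data, 43 of 109 peaks with WGATAR in this range (39.4%, interval 30.8 to 48.8%) were shared and 34 of 45 without it (75.6%). Whether absence from the 9aa-Ins list was the more or the less frequent state for such a site therefore turned on where the motif was counted. For the Kit site it did not, as 49 of 228 peaks with WGATAR anywhere (21.5%, interval 16.7 to 27.3%) were shared. Of peaks like the Kit promoter and the Slc26a2 site (15 to 17 reads without WGATAR), 129 of 843 (15.3%) were shared.

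**Figure D4:**
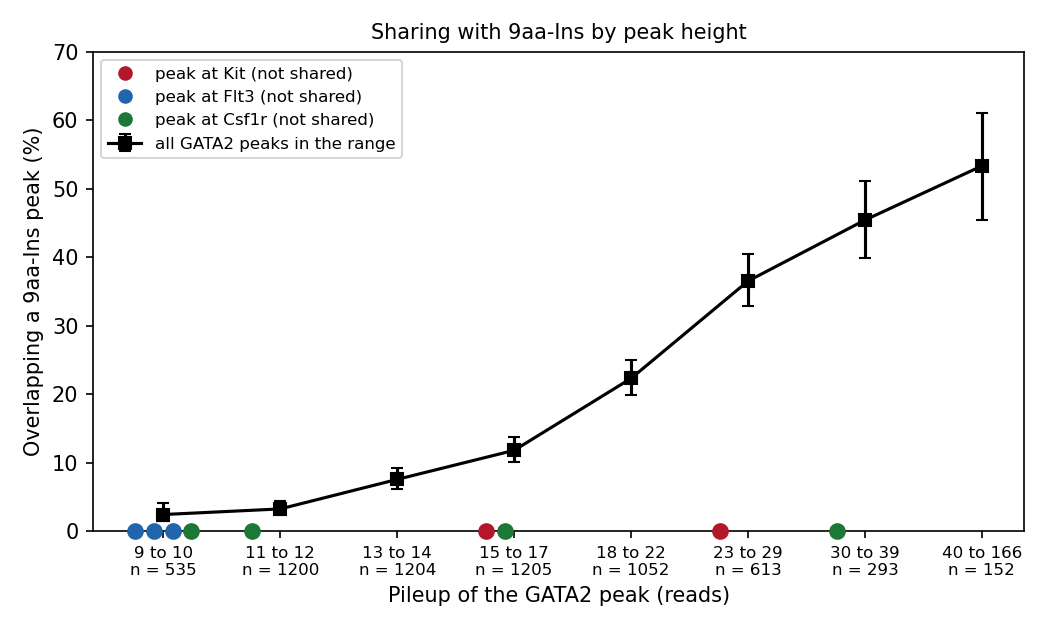
Share of GATA2 peaks that overlap a 9aa-Ins peak by pileup. The horizontal axis gives ranges of pileup in reads with the number of peaks in each, the vertical axis the percent shared, and bars the Wilson 95% interval. Colored circles at 0 mark the ranges in which the receptor peaks fall, none of which was shared. The share rises from 2.43% to 53.3%, and the peaks at Flt3 fall where it is lowest.

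The same rule was applied to 38 genes of the receptors' pathway, a list made up of the receptor family, its ligands, adaptors and enzymes of the signal, and inhibitors. The grouping is coarse, and a gene such as Cblb or Ptpn11 could be placed in another group. A GATA2 peak was listed for 36 of 38 genes (94.7%, against 60.1% of all protein-coding genes) and a 9aa-Ins peak for 7 of 38 (18.4%, against 23.8%). These shares were not tested, since neighboring genes of the list hold the same peaks. A gene counts when a summit lies in its window, also where the peak is nearest to the start of another gene. Among the 5 receptors all had a GATA2 peak and 0 had a 9aa-Ins peak. Pdgfra had 1 (22 reads, 134 kb after its start, with WGATAR 2 times), which is the nearer to Pdgfra of the 2 GATA2 peaks between Pdgfra and Kit. Of the 4 ligands, Kitl, the gene for stem cell factor, had no peak of either kind. Csf1 had 2 GATA2 peaks, the higher of 20 reads with WGATAR 3 times at 58.7 kb upstream and nearer to Eps8l3, and Il34 had 4, the highest of 17 reads. Flt3l, which encodes the ligand of FLT3, had 12 GATA2 peaks and 3 9aa-Ins peaks in its window. Its highest was 51 reads at 0.914 kb upstream, held WGATAR 1 time and was not shared. This peak lay in the promoter of Gm45713, though the start of Flt3l was the nearest.

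A GATA2 peak lay in the window of 17 of 18 adaptors and enzymes, all but Sos1, an exchange factor for RAS. At Gab1, Shc1, Cbl, Crkl, Pik3cb, Stat5b and Stat3 the strongest peak was nearest to the start of another gene. At the others with a peak it was nearest to their own start. The highest of these peaks was at Grb2, the adaptor that links receptors to RAS, with 36 reads at 4.38 kb upstream and WGATAR 3 times. Stat5a, Stat5b and Stat3 are neighbors and shared one 29-read peak in an intron of Stat3, without WGATAR. Promoters held 50.4% of all GATA2 peaks. The share of all genes with their strongest peak in their own promoter was not computed. The strongest peak was in the gene's own promoter at 5 of the 18. These were Cblb (22 reads), a ubiquitin ligase that removes receptors, Pik3r1 (22 reads), the regulatory subunit of PI3-kinase, Fyn (18 reads), a SRC family kinase, Plcg1 (10 reads), a phospholipase C, and the adaptor gene Shc1 (19 reads), whose peak is also in the promoter of Cks1b. 9aa-Ins was listed in the window of 2 of the 18, Cbl and Stat3. The shared peak at Cbl lay 101 kb upstream, in the promoter of H2afx. Of the 11 genes grouped as inhibitors all had a GATA2 peak in the window, and 4 a 9aa-Ins peak, which were Inpp5d, Ptpn6, Sh2b3 and Socs1. The strongest GATA2 peak at Ptpn6 was shared but lay 90.6 kb upstream, in the promoter of Usp5. Sh2b3 encodes LNK, an adaptor that restrains KIT signaling, and its 17-read peak 0.674 kb after the start was shared with 9aa-Ins. Promoter peaks of Spry2 (21 reads) and Dusp6 (18 reads), both of which dampen the RAS-ERK pathway, were not shared. The strongest peaks of the 36 genes were 33 distinct peaks, as neighboring genes share some, and 12 of the 33 (36.4%) held WGATAR near the summit, beside 30.3% of all GATA2 peaks.

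**Figure D5:**
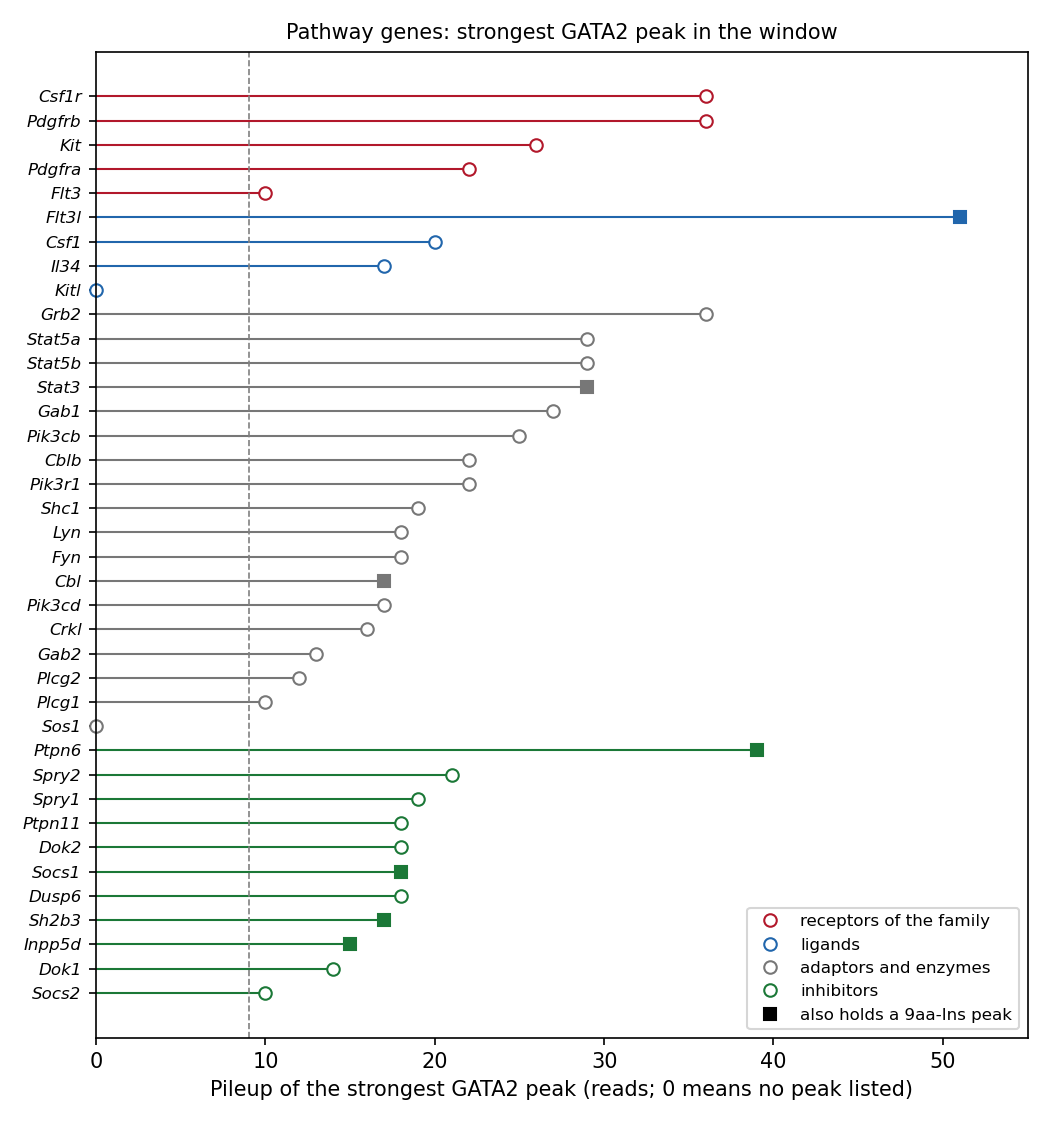
Pileup of the strongest GATA2 peak in the window of each of 38 pathway genes, in reads, grouped by role. Filled squares are genes that also hold a 9aa-Ins peak and open circles genes that do not, the dashed line is the lowest listed pileup (9 reads), and 0 means that no peak was listed. A peak in the window of several genes is drawn for each. The 5 receptors range from 10 to 36 reads without any 9aa-Ins peak, and Kitl and Sos1 are at 0.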

How the data were processed

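CUT&Tag with an anti-HA antibody was analysed as the 2 deposited peak lists, 1 per construct, each merging 2 libraries. The study's methods describe a merging of called peaks, whereas the lists are named as calls on merged replicates, so they may not be the peak sets counted in the study. Bowtie2 alignment to mm10, removal of duplicates and of blacklisted regions, and MACS3 peak calling at a q-value of 1e-06 were done by the authors. Versions are not given in the sources used here. Per file, the deposited columns used are the score, the fold enrichment (a ratio over background), −log10 of the p-value and of the q-value, and the summit offset. Columns of samples outside this series numbered 0. Total reads per library are not given in the lists.

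Pileups were solved from the fold enrichment: 100% of values were whole within 0.02 reads, and recomputed Poisson −log10 p-values differed from the deposited ones by at most 0.000519. Peaks were assigned with GENCODE M21 (38 of 38 pathway symbols matched), and motifs were read from GRCm38.p6, whose chromosomes hold every peak. Chromosome names were matched by number. Intervals are Poisson (pileups) and Wilson (shares). Named genes are the 3 receptors with every peak, nearer coding genes, and pathway genes. 1 gene of the planned pathway list is not reported here. The members and lists were chosen with earlier results of these data known. Steps were tested on simulated data. Python 3.11.15, numpy 2.4.6 and scipy 1.17.1 were used. Alternatives were other q-values, distances, starts, motif widths and overlaps.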

Additional observations from a re-analysis of the deposited data

How the results depend on the processing

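Of 63 alternative values, 41 stayed within 1.5 times the reported count, or within the interval of the reported percent, and 22 moved. No paired analysis was possible because the replicates of a group are merged into 1 list, and for the same reason no replicate could be left out. At a q-value of 1e-08 every receptor count stayed as reported. At 1e-10 Flt3 had 0 GATA2 peaks, Csf1r 2 and the receptor genes 1 with WGATAR, while Kit kept 2; GATA2 was then at 55.8% of protein-coding genes and 9aa-Ins at 18.3%. With 100 kb, Kit had 1 GATA2 peak and Csf1r 2, and the percents of genes were 52.5 and 18.6. With 50 kb, Kit had 1 and Csf1r 0, the percents were 40.6 and 12, and 9aa-Ins was at 3 pathway genes. From any transcript start, Kit had 4 GATA2 peaks and 1 9aa-Ins peak, as short internal transcripts extend the window downstream. With 200 kb, a distance chosen after seeing the data, Kit had 1 9aa-Ins peak. Counting only peaks nearest to the gene left 0 at Flt3 and 0 at Csf1r. WGATAR was at 1 of the receptor peaks within 50 bp of the summit, at 4 with the whole peak searched, and GATA alone at 4. The number of receptor peaks shared with 9aa-Ins stayed 0 under the 4 other definitions of sharing. Occupancy below 9 reads cannot be seen in either list.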

Other observations

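The stretch between the coding genes on both sides of Kit, from Pdgfra to Kdr, held 8 GATA2 peaks and 1 9aa-Ins peak, and only 2 of the GATA2 peaks were within the distance used above. Downstream of Kit there were 5, of which 3 held WGATAR within 100 bp of the summit, a number too small to set against the 30.3% of all GATA2 peaks. The highest lay 256 kb after the Kit start and had 36 reads (interval 25.2 to 49.8) with WGATAR 1 time. Its pileup was above the 26 reads of the site 114 kb upstream, with overlapping intervals. Its nearest protein-coding gene start was that of Kdr, the gene of a vascular endothelial growth factor receptor, at 148 kb. A 16-read peak with WGATAR 2 times lay at 252 kb. The others had 9 or 10 reads, and 9aa-Ins was listed at 1 of the 5, the Gm43101 site. Which gene these sites act on was not tested.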
